A study of Mus musculus with 12 samples.

Results

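The hypoxia-inducible factor (HIF) pathway outside glycolysis was followed in the mouse T cell leukemia line 8946 through 32 genes chosen by name. They were the HIF subunits, the enzymes and partners that regulate them, and HIF target genes that encode no glycolytic enzyme. All 32 were among the 23284 gene symbols of the deposited table, and 27 of them had a mean of at least 1 FPKM (fragments per transcript kilobase, relative to all mapped fragments) over the 12 libraries, as did 10152 genes in all. The other 5 (Epas1, Car9, Stc2, Pam and Bhlhe40) lay under that level and are described by their values, with 1 fit without the filter for Stc2.

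Each of the 12 RNA sequencing libraries came from cells that had received a pair of retroviral vectors, and 3 libraries were made for each pairing. For the group, the titles name only Notch1, Zmiz1, both or control, and L1601P, MigR1 and NGFR are named in the cell line labels. With the groups taken from the titles, the combined group carried the Notch1 mutant L1601P with GFP together with Zmiz1 with NGFR. The Notch1-titled group carried the Notch1 mutant with the empty NGFR vector, the Zmiz1-titled group carried Zmiz1 with the empty MigR1 vector, and the control group carried both empty vectors. Every group was therefore transduced with GFP and NGFR and sorted for both, and all 4 groups share the one leukemia line and a medium of RPMI with serum. The Notch1 receptor is cut on activation and its inner part turns on genes that drive many T cell leukemias, and Zmiz1 is a PIAS-like protein that assists Notch1 and other transcription factors. The labels name no change of oxygen and do not say whether the 3 replicates were separate cultures, so each p below measures only the spread between these libraries.

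HIF is a pair of proteins, an oxygen-regulated alpha subunit such as Hif1a or Epas1 and the constant partner Arnt, that binds short motifs near its target genes. When oxygen is present, the prolyl hydroxylases encoded by Egln1, Egln2 and Egln3 modify the alpha subunit, the ubiquitin ligase subunit Vhl then binds it, and it is degraded. The asparagine hydroxylase Hif1an and the protein Cited2 limit the contact of the alpha subunit with its coactivators. Because most of this control acts on protein, the level of Hif1a RNA is not a measure of HIF activity. Egln1 and Egln3 are themselves HIF targets, and further targets act on mitochondria, collagen, vessel growth, chromatin and the growth pathway of mTOR.

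For the groups with a single gene vector, titles and cell line labels were at odds: Zmiz1-titled libraries carry the cell line label L1601P/NGFR and Notch1-titled libraries the label MigR1/Zmiz1. Following the other label would exchange the names of these 2 groups and nothing else. The deposited column headers and the vector genes went with the titles. Notch1 averaged 35.6 ± 1.93 FPKM in combined, 32.1 ± 10.1 in Notch1-titled, 2.1 ± 0.218 in Zmiz1-titled and 1.89 ± 0.0863 in control libraries (SD, n = 3 per group here and throughout), and Zmiz1 averaged 49.3 ± 1.66, 0.212 ± 0.0153, 70.8 ± 3.39 and 0.176 ± 0.00489 FPKM in the same order of groups. All 7 T cell markers were at 13.6 FPKM or more in every library, and their sum was 2796 to 2944 FPKM in combined, 2983 to 3429 in Notch1-titled, 2395 to 2667 in Zmiz1-titled and 2876 to 2985 FPKM in control libraries. B cell markers summed to at most 0.489 FPKM and erythroid markers to at most 0.309 FPKM per library. Itgam made up nearly all of the myeloid marker sum and Pecam1 of the fibroblast and endothelial sum. The myeloid sum was 59.1 to 61.5 FPKM in combined, 50.9 to 58.2 in Notch1-titled, 91.3 to 100.01 in Zmiz1-titled and 97.7 to 102 FPKM in control libraries, with S100a8 and S100a9 at 0 in every library. The fibroblast and endothelial sum was 89.8 to 103 FPKM in combined, 84.4 to 92.9 in Notch1-titled, 91.6 to 130.4 in Zmiz1-titled and 116 to 126 FPKM in control libraries, with Col3a1 and Cdh5 at 0 in every library. The part of these marker sums in the results below was not tested. Zmiz1-titled replicate 2 stood apart with a mean correlation of 0.942 with the other libraries, against 0.949 to 0.957 for the others, and calls that change without it are named with the comparison they belong to. The files hold no read totals, so the depth is unknown and no counting interval is given.

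Against the control, Notch1-titled cells had higher RNA of the oxygen sensor Egln1, of the mitochondrial genes Bnip3, Fam162a and Higd1a, of the collagen hydroxylase subunit P4ha1 and of the growth factor Vegfa. These 6 of the 27 genes tested rose and 0 fell (limma on log2(FPKM + 1), adjusted p below 0.05 over all genes tested), where 5.49% of all genes tested were called. The median log2 fold change was 0.01 over the 27 genes and 0.02 over all genes. Without Zmiz1-titled replicate 2, which enters through the shared estimate of spread, the secreted peptide gene Adm and the stress gene Ndrg1 were also called and the count was 8, in a setting where the share called among all genes was 9.74%. Zmiz1-titled cells differed from the control in Egln3, a second oxygen sensor, which was the 1 gene of 27 called, and it rose. The share called among all genes was 2.11%. The count was 2 without Zmiz1-titled replicate 1, where Bnip3 was called lower (1.48% of all genes called), and 2 without Zmiz1-titled replicate 3, where P4ha2 was called lower (1.57%).

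Cells with both vectors had more RNA of both of these sensors and of Vegfa than the control. Egln1, Egln3 and Vegfa rose, and the collagen hydroxylase subunit P4ha2 and Ndrg1 fell, which made 5 of 27 genes against 6.46% of all genes tested. The median over the 27 genes was -0.04 against 0.02 over all genes. Leaving out Zmiz1-titled replicate 2 raised the count to 8, with Fam162a and Narf called higher and Adm called lower, as the share over all genes became 10.7%. Leaving out control replicate 2 or control replicate 3 lowered it to 3, with 3.34% and 3.44% of all genes called. Fewer cells of a type and less RNA per cell cannot be told apart in such bulk libraries. These 3 comparisons share the control libraries and were not set against each other.

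The vectors were also compared with each other. In combined against Notch1-titled cells, Bnip3, Egln1 and P4ha1 fell and Egln3 rose, 4 of 27 genes where 1.51% of all genes were called. In combined against Zmiz1-titled cells 1 of 27 genes, Egln1, rose, where 3.86% of all genes were called. That count was 3 without Zmiz1-titled replicate 2, which added Egln3 and Ndrg1 as lower (4.24% of all genes called). It was 2 without Notch1-titled replicate 1 (3.82%) or Notch1-titled replicate 3 (4.97%), where Fam162a was added as higher. It was also 2 without Zmiz1-titled replicate 1, with Bnip3 added as higher (2.95%), or Zmiz1-titled replicate 3, with Ndrg1 added as lower (3.47%). In Notch1-titled against Zmiz1-titled cells 9 of 27 genes were called, 7 higher and 2 lower, where 10.9% of all genes were called. Without Zmiz1-titled replicate 2 the calls of Arnt and Ddit4 were lost, Adm was called lower and the count was 8, again with 10.9% of all genes called. The 7 were Egln1, Bnip3, Fam162a, Plod2, Higd1a, P4ha1 and Ddit4, and the 2 were Egln3 and Arnt. In each of the 26 calls of these 6 comparisons the ranges of the groups compared did not overlap. Ranges were also apart in comparisons that were not called, such as Hif1an in Notch1-titled against control cells (limma adjusted p = 0.236). Separate ranges are therefore no further evidence for a call.

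**Figure D1:**
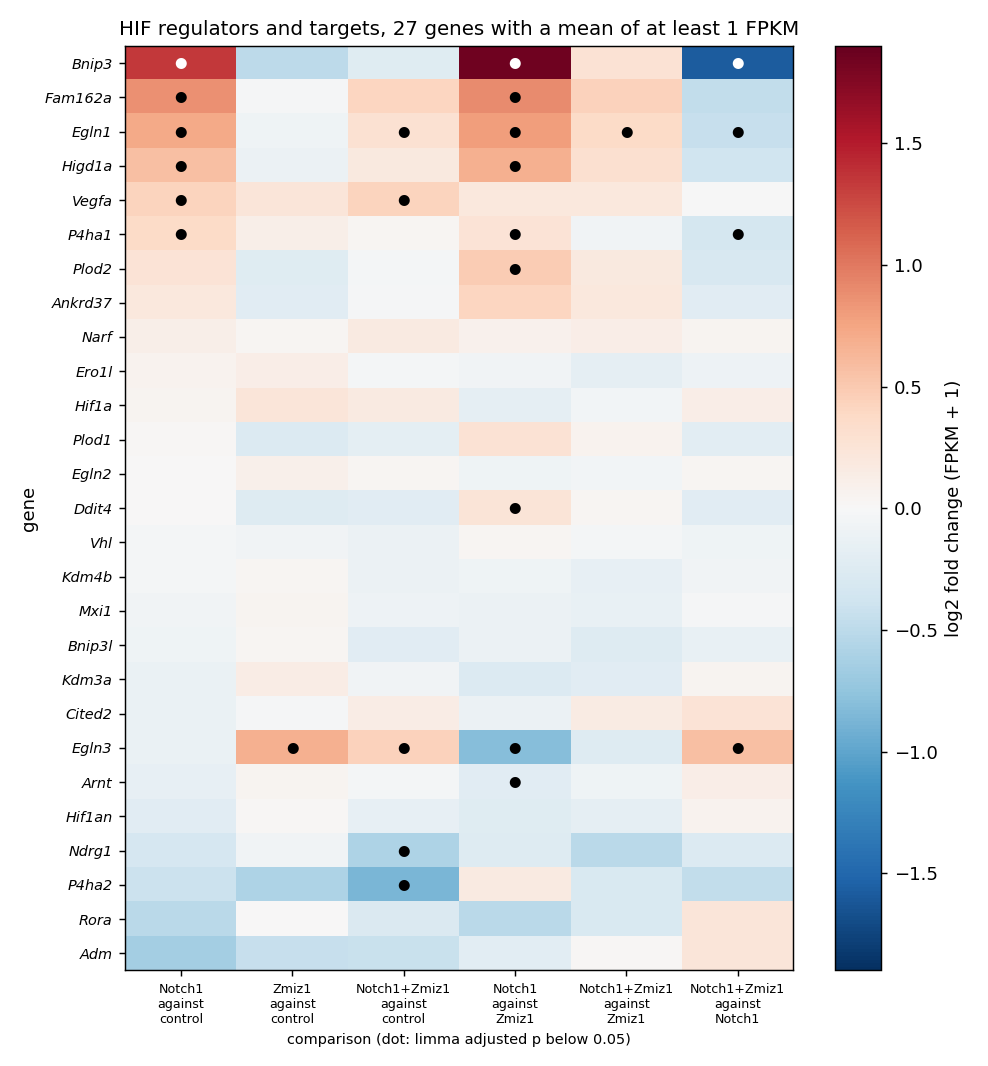
Log2 fold changes of 27 genes averaging at least 1 FPKM (rows) in the 6 pairwise comparisons (columns), on the scale of log2(FPKM + 1), where Notch1+Zmiz1 stands for the combined group. Red is higher and blue lower in the group named first, and a dot marks a limma adjusted p below 0.05. Bnip3 has the extreme values, 1.85 in Notch1 against Zmiz1 and -1.57 in Notch1+Zmiz1 against Notch1, and Egln1 has a dot in 5 of the 6 columns.

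Promoter sequence is shown for 4 genes on which the results turn, 2 oxygen sensors and 2 mitochondrial genes that rose in Notch1-titled cells. The windows are RefSeq promoters of build GRCm38.p6, each 300 bases long and written in the direction of the gene. The HIF motif core was searched as ACGTG or GCGTG on both strands, so that CACGT and CACGC mark the opposite strand, and capitals mark each match. The Egln1 window is chr8:124949205-124949504, minus strand. The Egln3 window is chr12:54203825-54204124, minus strand. The Bnip3 window is chr7:138909457-138909756, minus strand. The Fam162a window is chr16:36071512-36071811, minus strand.
Egln1 promoter: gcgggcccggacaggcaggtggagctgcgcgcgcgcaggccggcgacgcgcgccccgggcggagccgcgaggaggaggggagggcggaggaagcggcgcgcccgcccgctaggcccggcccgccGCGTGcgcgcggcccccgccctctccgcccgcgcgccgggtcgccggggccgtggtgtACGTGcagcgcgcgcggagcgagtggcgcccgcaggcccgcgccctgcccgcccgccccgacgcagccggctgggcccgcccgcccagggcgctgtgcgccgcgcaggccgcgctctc
Egln3 promoter: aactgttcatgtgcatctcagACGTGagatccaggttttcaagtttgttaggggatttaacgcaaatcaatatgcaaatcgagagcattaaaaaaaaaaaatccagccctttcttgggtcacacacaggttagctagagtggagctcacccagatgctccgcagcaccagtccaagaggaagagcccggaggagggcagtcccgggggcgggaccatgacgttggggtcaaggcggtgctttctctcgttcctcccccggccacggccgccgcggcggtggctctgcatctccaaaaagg
Bnip3 promoter: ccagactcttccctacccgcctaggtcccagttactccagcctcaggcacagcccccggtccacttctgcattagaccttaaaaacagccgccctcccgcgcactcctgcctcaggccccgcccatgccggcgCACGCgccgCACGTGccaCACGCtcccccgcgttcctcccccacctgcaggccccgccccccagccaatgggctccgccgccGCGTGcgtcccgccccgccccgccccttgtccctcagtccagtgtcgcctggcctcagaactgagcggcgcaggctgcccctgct
Fam162a promoter: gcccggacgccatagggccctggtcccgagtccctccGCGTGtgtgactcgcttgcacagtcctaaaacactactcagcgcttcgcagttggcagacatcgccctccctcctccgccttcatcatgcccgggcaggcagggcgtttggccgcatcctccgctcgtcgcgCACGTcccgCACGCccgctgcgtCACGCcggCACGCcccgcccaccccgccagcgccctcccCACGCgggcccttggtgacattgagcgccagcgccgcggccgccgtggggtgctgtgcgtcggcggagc
The Egln1 window held 2 matches, Egln3 1, Bnip3 5 and Fam162a 6, where CACGTG counts once on each strand. Of the 32 genes, 26 had a window in the table, and 24 of the 26 (92.3%) held a match in at least 1 window, Vhl and Hif1an being the exceptions. The share was 46.7% among all 27025 genes with a window and 70.0% among the 7171 of them that were tested here. The longer motif CACGTG was present in windows of Hif1a, Egln2, Bnip3 and Cited2, and in 7.15% of all windows. The genes were chosen as known HIF targets and regulators and base composition was not matched, so these shares are a description, and a match is not a site of binding.

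The HIF subunits differed little between groups. Hif1a, the oxygen-regulated alpha subunit, was at 48.7, 41.7 and 43.7 FPKM in combined, 45.6, 38.1 and 39.1 in Notch1-titled, 48.6, 49.8 and 41.0 in Zmiz1-titled and 42.9, 38.0 and 37.5 FPKM in control libraries. The groups overlapped in all 6 comparisons, and its adjusted p lay above the threshold in each. Epas1, another alpha subunit, was at or below 0.0565 FPKM in all 12 libraries, so Hif1a accounted for nearly all alpha subunit RNA of these 2 genes. Hif3a, a further alpha subunit gene listed among the partners below, averaged between 0.215 FPKM (Zmiz1-titled) and 0.374 FPKM (Notch1-titled) per group. Arnt, the partner of the alpha subunits, had 23.7, 24.2 and 21.6 FPKM in Notch1-titled libraries, against 26.1, 27.5 and 27 FPKM in Zmiz1-titled libraries. It fell by 0.21 on the log2 scale (limma adjusted p = 0.0325), a call that ended without Zmiz1-titled replicate 2 (adjusted p = 0.0586), without each of 6 other libraries, with robust variances (0.0528) and with these groups alone in the fit (0.240). Arnt averaged 25.3 ± 0.803 FPKM in combined and 25.9 ± 0.161 FPKM in control libraries and was called in no other comparison.

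The oxygen sensors changed most among the regulators, and Egln1 and Egln3 did so in different groups. Egln1, the main prolyl hydroxylase for HIF in most tissues, had 30.9, 29.3 and 29.7 FPKM in combined, 41.0, 39.2 and 42.5 in Notch1-titled, 24.0, 22.7 and 22.5 in Zmiz1-titled and 25.6, 24.0 and 23.9 FPKM in control libraries. The 3 Notch1-titled libraries were the highest of the 12, the 3 combined libraries came next, and Zmiz1-titled and control libraries overlapped. Notch1-titled cells rose by a log2 fold change of 0.72 against the control (adjusted p = 2.83e-05) and by 0.80 against Zmiz1-titled cells (adjusted p = 5.43e-06). Combined cells lay between, 0.28 above the control (adjusted p = 0.0102), 0.36 above Zmiz1-titled cells (adjusted p = 0.00324) and -0.43 against Notch1-titled cells (adjusted p = 0.00177). The first of these calls was lost without control replicate 2 (adjusted p = 0.0558) or control replicate 3 (0.0557). Zmiz1-titled cells differed from the control by -0.08 (adjusted p = 0.581).

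Egln3, a prolyl hydroxylase known for strong induction by HIF, had a different order of groups. It had 46.6, 43.7 and 43.2 FPKM in combined, 29.5, 29.2 and 29.9 in Notch1-titled, 57.5, 46.4 and 55.1 in Zmiz1-titled and 34.2, 32.3 and 31.1 FPKM in control libraries. All 6 libraries with the Zmiz1 vector lay above all 6 without it. The log2 fold change was 0.68 in Zmiz1-titled cells against the control (adjusted p = 9.55e-04, and 0.0543 with these groups alone in the fit), 0.44 in combined cells against the control (adjusted p = 0.00609) and 0.58 in combined against Notch1-titled cells (adjusted p = 0.00305). Notch1-titled cells lay below Zmiz1-titled cells, with a log2 fold change of -0.82 (adjusted p = 6.41e-05). The Notch1-titled libraries were also all below the control libraries, but the difference of -0.13 was not called (adjusted p = 0.398). Combined against Zmiz1-titled cells gave -0.24 (adjusted p = 0.131) with overlapping ranges, and -0.33 (adjusted p = 0.00956) without Zmiz1-titled replicate 2.

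**Figure D2:**
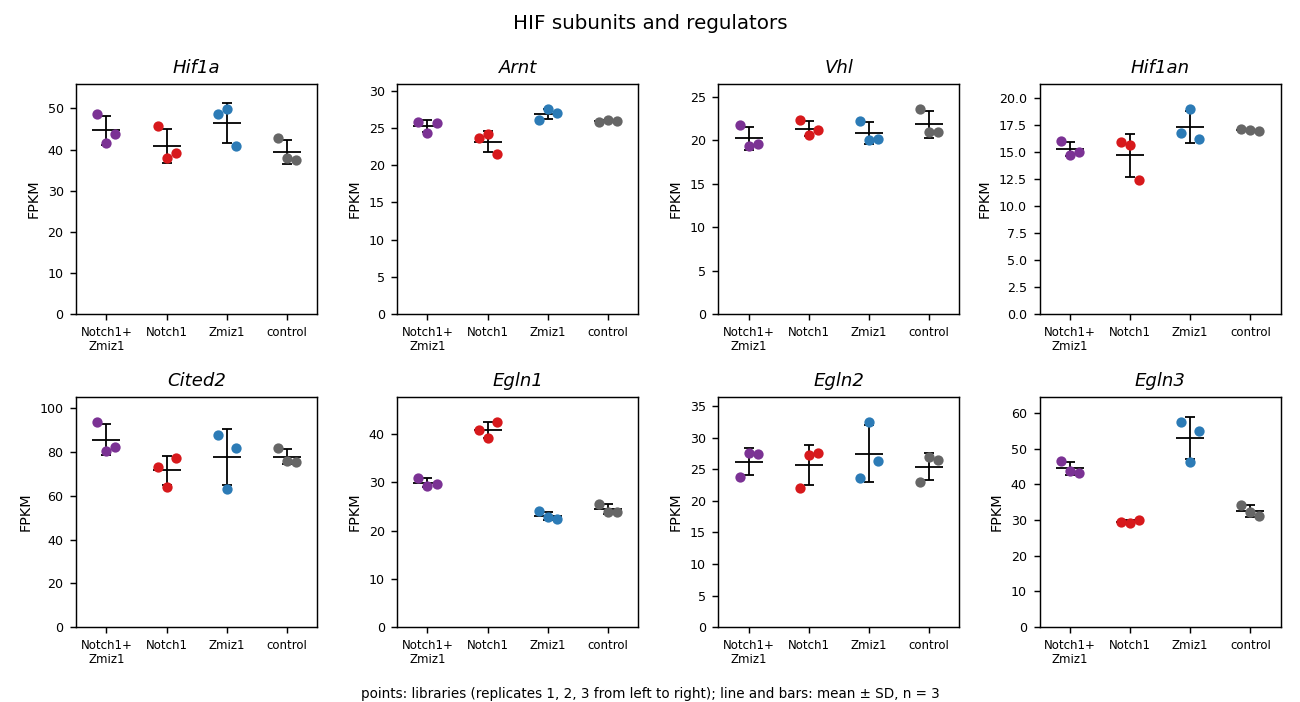
FPKM (vertical axes, each from 0) of 8 HIF subunits and regulators in the 4 groups, with 1 point per library and the mean and SD of 3 as lines. Egln1 is highest in the 3 Notch1-titled libraries (39.2 to 42.5 FPKM) and Egln3 is higher in the 6 libraries with the Zmiz1 vector (43.2 to 57.5 FPKM) than in the other 6 (29.2 to 34.2 FPKM), while the groups of Hif1a, Vhl and Egln2 overlap.

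Egln2, the remaining prolyl hydroxylase, averaged 26.2 ± 2.15, 25.7 ± 3.12 and 27.4 ± 4.52 FPKM in combined, Notch1-titled and Zmiz1-titled libraries and 25.4 ± 2.18 FPKM in control libraries, and its ranges overlapped in every comparison. The 3 transcripts summed to 100.3 to 101 FPKM in combined, 92.5 to 100.1 in Notch1-titled, 102 to 105 in Zmiz1-titled and 81.3 to 83.2 FPKM in control libraries. The summed level was thus lowest in the 3 control libraries, and this order also held after median ratio scaling, where the control sums reached 84.1 and those of the other groups were at least 92.5 FPKM. The makeup of the sum differed. Egln3 made up 44.2% ± 1.59 of it in combined, 30.8% ± 0.982 in Notch1-titled, 51.1% ± 4.79 in Zmiz1-titled and 39.5% ± 1.67 in control libraries. Egln1 made up 29.8% ± 0.712, 42.6% ± 1.67, 22.3% ± 0.583 and 29.7% ± 1.12 in the same order. The ratio of Egln3 to Egln1 was accordingly 1.49 ± 0.0252 in combined, 0.723 ± 0.0208 in Notch1-titled, 2.30 ± 0.221 in Zmiz1-titled and 1.33 ± 0.0245 in control libraries, and the ranges of the 4 groups did not overlap.

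**Figure D3:**
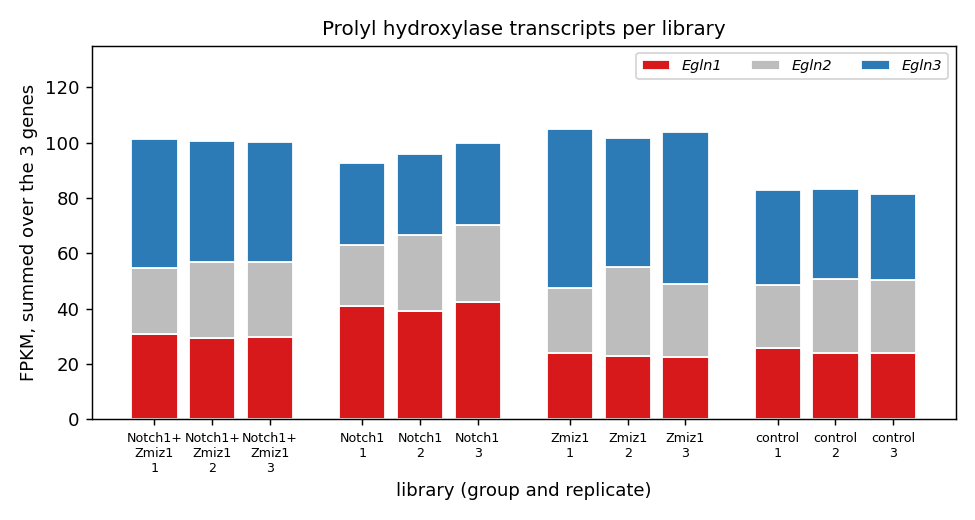
Stacked FPKM (vertical axis, from 0) of the prolyl hydroxylase genes Egln1 (red), Egln2 (grey) and Egln3 (blue) in each of the 12 libraries. The control sums of 81.3 to 83.2 FPKM are below the other 9, and the red part is largest in the Notch1-titled libraries. The blue part is largest on average in the Zmiz1-titled libraries, though replicate 2 of that group (46.4 FPKM) is just below combined replicate 1 (46.6 FPKM).

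The other regulators passed the test in none of the 6 comparisons. Vhl, which binds the hydroxylated alpha subunit, averaged 20.2 ± 1.29 FPKM in combined, 21.3 ± 0.903 in Notch1-titled, 20.8 ± 1.25 in Zmiz1-titled and 21.8 ± 1.51 in control libraries. Hif1an averaged 15.2 ± 0.673, 14.7 ± 1.95, 17.3 ± 1.45 and 17.0 ± 0.113 FPKM in the same order, so that both groups with the Notch1 mutant lay below both without it, at an adjusted p of 0.137 to 0.424 in the 4 comparisons concerned. Cited2 was the most abundant regulator, at 85.6 ± 7.02, 71.6 ± 6.76, 77.6 ± 12.8 and 77.8 ± 3.49 FPKM.

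Among targets that act on mitochondria, Bnip3 showed the widest differences. Bnip3 encodes a mitochondrial outer membrane protein that drives mitophagy. It was at 6.65, 5.62 and 6.61 FPKM in combined, 22.7, 19.3 and 20.1 in Notch1-titled, 7.05, 4.11 and 4.31 in Zmiz1-titled and 7.52, 7.85 and 7.15 FPKM in control libraries. The Notch1-titled libraries stood alone, and the other 3 groups lay at 7.85 FPKM or below. Notch1-titled cells had a 2.76-fold higher mean than the control (a log2 fold change of 1.35 at a limma adjusted p = 4.21e-04) and a 4.02-fold higher mean than Zmiz1-titled cells (log2 fold change 1.85, adjusted p = 2.30e-05). Combined against Notch1-titled cells gave a log2 fold change of -1.57 (adjusted p = 2.92e-04), and combined cells did not pass the test against the control (-0.22, adjusted p = 0.485). Zmiz1-titled against control cells gave -0.50 (adjusted p = 0.153), and -0.71 (adjusted p = 0.00455) without Zmiz1-titled replicate 1.

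Fam162a, a mitochondrial protein gene induced by HIF, was at 42.1, 47.9 and 45.4 FPKM in combined, 54.7, 59.4 and 75.7 in Notch1-titled, 34.3, 30.0 and 35.4 in Zmiz1-titled and 31.9, 35.0 and 34.4 FPKM in control libraries. Notch1-titled libraries were highest, combined libraries came next, and the other groups overlapped. The Notch1-titled rise was 0.87 against the control (adjusted p = 0.00109) and 0.90 against Zmiz1-titled cells (adjusted p = 4.72e-04). Combined libraries were all above the control (0.41, adjusted p = 0.0572) and Zmiz1-titled libraries (0.43, adjusted p = 0.0606) and all below Notch1-titled libraries (-0.47, adjusted p = 0.0812), but none of these differences passed the test. The difference from the control did pass it without Zmiz1-titled replicate 2 (adjusted p = 0.0400), Notch1-titled replicate 1 (0.0405) or Notch1-titled replicate 3 (0.0114), with robust variances (0.0458) and with these groups alone in the fit (0.0129). The difference from Zmiz1-titled cells passed it without Notch1-titled replicate 1 (0.0437) or Notch1-titled replicate 3 (0.0121), with robust variances (0.0470) and after quantile normalization (0.0497), and that from Notch1-titled cells without Notch1-titled replicate 1 (0.0493). Higd1a, which associates with respiratory chain complexes, had 13.5, 11.5 and 11.2 FPKM in combined, 16.2, 14.5 and 17.3 in Notch1-titled, 11.2, 8.77 and 9.02 in Zmiz1-titled and 12, 9.37 and 10.2 FPKM in control libraries. The Notch1-titled libraries were again above the other 9. Its rise was 0.57 against the control (adjusted p = 0.0162) and 0.68 against Zmiz1-titled cells (adjusted p = 0.00350). The call against the control was lost without Notch1-titled replicate 3 (adjusted p = 0.0635), control replicate 2 (0.0792) or control replicate 3 (0.0692).

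Bnip3l, the close relative of Bnip3 in mitophagy, did not share its pattern. It averaged 50.2 ± 4.47, 55.3 ± 5.28 and 59.8 ± 7.47 FPKM in combined, Notch1-titled and Zmiz1-titled libraries and 58.3 ± 4.30 FPKM in control libraries, with overlapping ranges in every comparison. The ratio of Bnip3 to Bnip3l per library was 0.126 ± 0.0105 in combined, 0.375 ± 0.00359 in Notch1-titled, 0.0863 ± 0.0239 in Zmiz1-titled and 0.129 ± 0.00974 in control libraries. The libraries keep no strand, and exons of Bnip3 share 504 bases with the antisense gene Gm45507, those of Higd1a 683 bases with Gm47112 and those of Fam162a 168 bases with Wdr5b, so reads of these pairs cannot be told apart there.

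**Figure D4:**
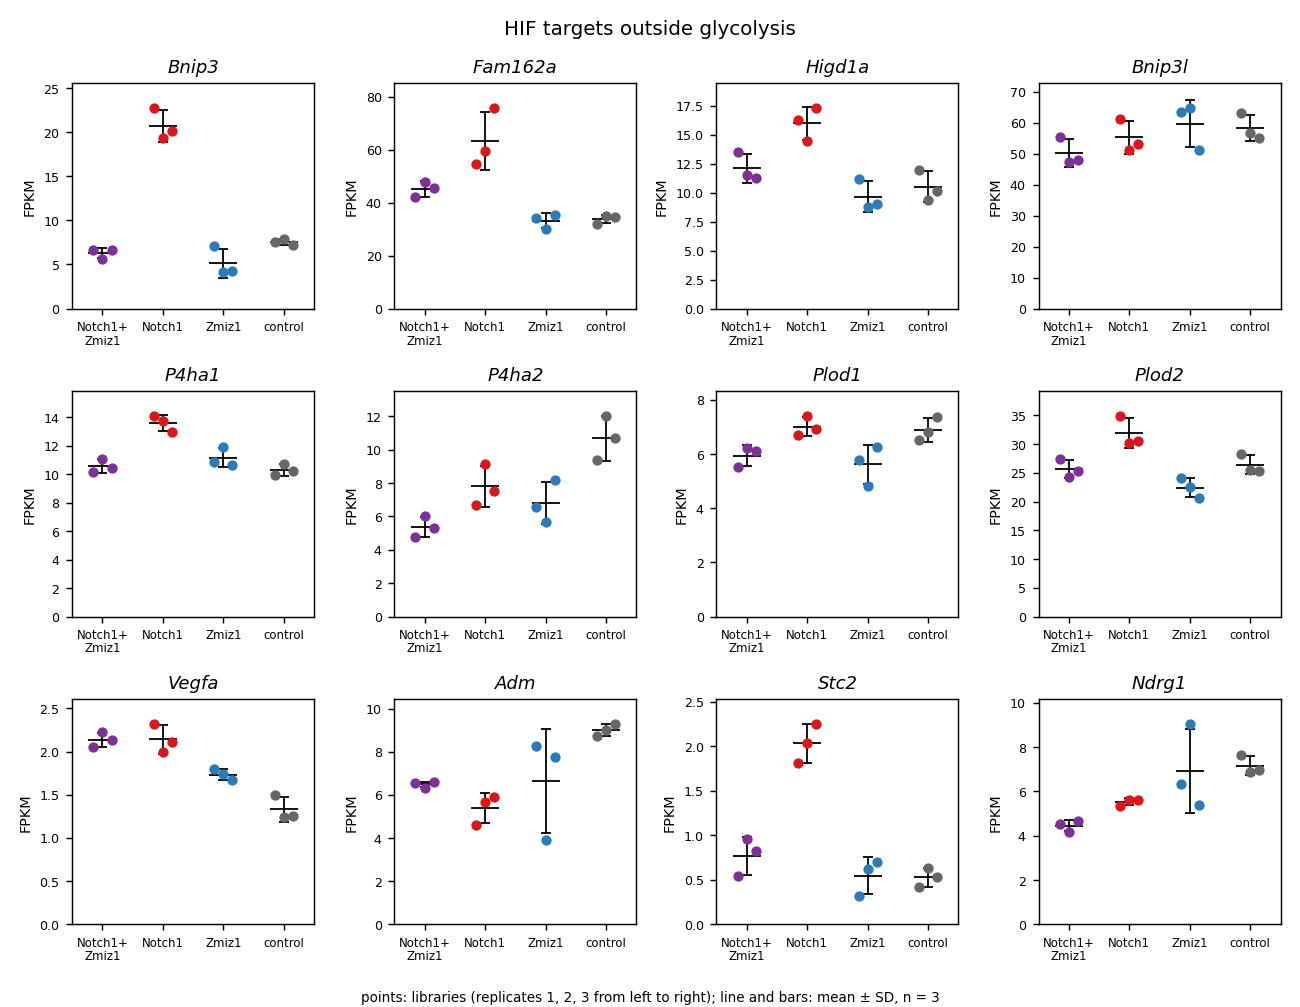
FPKM (vertical axes, each from 0) of 12 HIF targets outside glycolysis in the 4 groups, with 1 point per library and the mean and SD of 3 as lines. Bnip3, Fam162a, Higd1a, P4ha1 and Stc2 are higher in the 3 Notch1-titled libraries than in the other 9, P4ha2 is lowest in the combined libraries on average, and Zmiz1-titled replicate 2 stands apart from its group in Adm (3.90 FPKM) and Ndrg1 (9.04 FPKM).

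Among the collagen enzymes, the alternative catalytic subunits of prolyl 4-hydroxylase differed in pattern. P4ha1 had 10.2, 11.1 and 10.4 FPKM in combined, 14.1, 13.7 and 13.0 in Notch1-titled, 10.9, 11.9 and 10.7 in Zmiz1-titled and 9.90, 10.7 and 10.2 FPKM in control libraries. It was higher in Notch1-titled cells than in the control (log2 fold change 0.37, adjusted p = 0.00469) and than in Zmiz1-titled cells (0.27, adjusted p = 0.0173), and combined against Notch1-titled cells gave -0.33 (adjusted p = 0.0202). The call against Zmiz1-titled cells was lost without either of Notch1-titled replicates 1 and 2 and either of Zmiz1-titled replicates 1 and 3 (adjusted p 0.0519 to 0.0551) and with these groups alone in the fit (0.178). The call of combined against Notch1-titled cells was lost without combined replicate 1 or 3 or Notch1-titled replicate 1 or 2 (0.0853 to 0.102) and with these groups alone in the fit (0.0845). P4ha2 had 4.77, 6.02 and 5.31 FPKM in combined, 6.70, 9.15 and 7.55 in Notch1-titled, 6.58, 5.67 and 8.16 in Zmiz1-titled and 9.36, 12 and 10.7 FPKM in control libraries. The control libraries were the 3 highest of the 12. Combined cells fell by 0.87 against the control (adjusted p = 0.00401), whereas Notch1-titled (-0.41, adjusted p = 0.132) and Zmiz1-titled cells (-0.59, adjusted p = 0.0641) did not pass the test. The Zmiz1-titled difference was -0.71 (adjusted p = 0.0394) without Zmiz1-titled replicate 3. With all 12 libraries, the difference of -0.59 passed the test with robust variances (adjusted p = 0.0466) and with a replicate block (0.0429). The ratio of P4ha1 to P4ha2 was 1.98 ± 0.147 in combined, 1.77 ± 0.303 in Notch1-titled, 1.69 ± 0.396 in Zmiz1-titled and 0.970 ± 0.0835 in control libraries.

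The lysyl hydroxylase genes Plod1 and Plod2, which modify collagen lysines, were called in fewer comparisons than P4ha1. Plod2 had 34.9, 30.1 and 30.6 FPKM in Notch1-titled libraries, against 24.1, 22.5 and 20.7 FPKM in Zmiz1-titled libraries, a rise of 0.49 (adjusted p = 0.00319, and 0.0572 with these groups alone in the fit). Combined and control libraries lay between these groups, at 25.7 ± 1.56 and 26.4 ± 1.67 FPKM. Plod1 averaged 5.94 ± 0.379, 7.01 ± 0.356, 5.62 ± 0.723 and 6.90 ± 0.447 FPKM in combined, Notch1-titled, Zmiz1-titled and control libraries and was called in no comparison, though Notch1-titled libraries were all above Zmiz1-titled libraries (0.28, adjusted p = 0.0640, and 0.0355 without Zmiz1-titled replicate 3).

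Of the secreted and surface proteins, Vegfa, the main growth factor of blood vessels, was low in every library. It had 2.05, 2.22 and 2.13 FPKM in combined, 2.32, 1.99 and 2.11 in Notch1-titled, 1.79, 1.74 and 1.67 in Zmiz1-titled and 1.5, 1.24 and 1.25 FPKM in control libraries. The control libraries were the 3 lowest. Combined cells had a log2 fold change of 0.43 (adjusted p = 0.00629) and Notch1-titled cells one of 0.43 (adjusted p = 0.00711) against the control, and Zmiz1-titled cells did not pass the test (0.23, adjusted p = 0.188). At this level the log2(FPKM + 1) scale understates the change, and the ratios of mean FPKM were 1.60 for combined and 1.61 for Notch1-titled cells.

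Adm, which encodes a peptide that widens vessels, had 6.53, 6.34 and 6.58 FPKM in combined, 4.61, 5.69 and 5.90 in Notch1-titled, 8.26, 3.90 and 7.76 in Zmiz1-titled and 8.73, 9.02 and 9.28 FPKM in control libraries. The control libraries were the 3 highest, and 1 Zmiz1-titled library, replicate 2, was the lowest of all. No Adm call was made with all 12 libraries (Notch1-titled against control -0.65, adjusted p = 0.0882, and combined against control -0.42, adjusted p = 0.277). Without Zmiz1-titled replicate 2 the same differences had an adjusted p of 7.47e-04 (Notch1-titled) and 0.00702 (combined). Notch1-titled against Zmiz1-titled cells gave -0.21 (adjusted p = 0.535), and -0.50 (adjusted p = 0.00480) without Zmiz1-titled replicate 2. Stc2, a secreted glycoprotein gene, lay just under the 1 FPKM filter with a mean of 0.973 FPKM. It had 0.539, 0.956 and 0.829 FPKM in combined, 1.82, 2.04 and 2.25 in Notch1-titled, 0.317, 0.626 and 0.707 in Zmiz1-titled and 0.422, 0.639 and 0.529 FPKM in control libraries, so that the Notch1-titled libraries were above the other 9. In the fit without a filter Notch1-titled cells were 0.99 above the control (adjusted p = 0.00117). Car9, the carbonic anhydrase often used as a hypoxia marker, was at or below 0.116 FPKM in all 12 libraries, and Pam, which amidates peptides, lay between 0.425 and 0.842 FPKM.

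The genes of chromatin and transcription were called in no comparison. Kdm3a, a histone H3 demethylase, averaged 45.4 ± 2.5, 43.9 ± 2.15, 53.3 ± 10.0 and 47.8 ± 3.23 FPKM in combined, Notch1-titled, Zmiz1-titled and control libraries. Kdm4b, another histone demethylase, stayed between 10.4 and 15.5 FPKM, and the MYC antagonist Mxi1 between 15.8 and 20.1 FPKM. Zmiz1-titled replicate 2 was the highest library for both demethylases. The nuclear receptor gene Rora spread most within Notch1-titled libraries, at 5.48, 7.72 and 3.43 FPKM, against 7.05, 8.48 and 8.40 FPKM in control libraries. Its difference of -0.51 was not called (adjusted p = 0.188), and was -0.74 (adjusted p = 0.0345) without Notch1-titled replicate 2. The repressor gene Bhlhe40 was at or below 0.276 FPKM throughout.

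Among the remaining targets, Ddit4, an inhibitor of mTOR complex 1, was the most abundant of the 32 genes. It had 134, 149 and 153 FPKM in Notch1-titled libraries, against 120.4, 115 and 132 FPKM in Zmiz1-titled libraries, a rise of 0.25 (adjusted p = 0.0377) that was lost under median ratio scaling (adjusted p = 0.0559). It was also lost without any one of 10 libraries (adjusted p up to 0.111), Zmiz1-titled replicate 2 included (adjusted p = 0.0909), and with these groups alone in the fit (0.228). Ddit4 averaged 125 ± 3.05 FPKM in combined libraries and 145 ± 2.27 FPKM in control libraries, a difference of -0.21 that passed the test only under median ratio scaling, quantile normalization and a fit of these 2 groups alone. Ndrg1, a stress and differentiation gene, had 4.54, 4.16 and 4.66 FPKM in combined libraries, against 7.64, 6.86 and 6.97 FPKM in control libraries. It fell by 0.58 (adjusted p = 0.0266), a call lost without any single combined or control library (adjusted p 0.0741 to 0.111). Ero1l, an oxidase of the endoplasmic reticulum (11.4 ± 1.15, 12.3 ± 1.34, 13.0 ± 1.65 and 11.8 ± 1.60 FPKM in combined, Notch1-titled, Zmiz1-titled and control libraries), Narf (15.6 to 21.3 FPKM) and Ankrd37 (0.546 to 1.92 FPKM) passed the test in no comparison.

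Whether the Zmiz1 vector acted differently in cells with and without the Notch1 mutant was tested as an interaction, the difference of combined minus Notch1-titled cells less that of Zmiz1-titled minus control cells. None of the 27 genes was called by limma (0 of 27), where 0.069% of all genes tested were called. At an unadjusted p below 0.05 there were 5 of the 27 (18.5%), against 3.27% of all genes tested. No alternative run gave a call among the 27. The 3 genes with the smallest p were P4ha1 (-0.44, adjusted p = 0.305), Bnip3 (-1.08, adjusted p = 0.305) and Egln1 (-0.35, adjusted p = 0.366). For Bnip3, combined minus Notch1-titled cells was -1.57, against -0.50 for Zmiz1-titled minus control cells, on the log2 scale. Egln3, which was higher with the Zmiz1 vector in both settings, had an interaction of -0.11 (adjusted p = 0.999). The median interaction was -0.08 over the 27 genes and 0.00 over all genes.

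Further genes of the pathway were counted from lists, to be read against the share of all genes called in each comparison. Of 17 tested partners in HIF assembly and degradation (Cul2, Ep300, Siah2 and others), none was called in Notch1-titled or Zmiz1-titled against control cells, and 2 (11.8%, against 6.46% of all genes) rose in combined against control cells, the chaperones Hsp90ab1 (0.55, adjusted p = 7.18e-04) and Hsp90aa1 (0.21, adjusted p = 0.0226). Hsp90ab1 also rose in combined against Zmiz1-titled cells (0.29, adjusted p = 0.0412), which made 5.88% of the partners against 3.86% of all genes, and no partner was called in the other 3 comparisons. Of 23 tested further targets outside glycolysis, 3 rose and 1 fell in Notch1-titled against control cells (17.4%, against 5.49% of all genes). The cytokine gene Mif averaged 147 ± 26.3 FPKM in Notch1-titled libraries, against 70.7 ± 1.08 FPKM in control libraries (1.03, adjusted p = 1.94e-04). The mitochondrial adenylate kinase gene Ak4 averaged 11.6 ± 0.928 and 18.5 ± 1.07 FPKM in these groups (-0.64, adjusted p = 0.00120). In Zmiz1-titled against control cells 1 rose, the secreted glycoprotein gene Stc1 (1.11, adjusted p = 0.0210), and 1 fell, Tmem45a (-0.84, adjusted p = 0.00123), which made 8.7% against 2.11% of all genes. Stc1 was low and spread widely in Zmiz1-titled libraries, at 2.94 ± 1.55 FPKM, and its control mean lay under 1 FPKM. In combined against control cells 2 rose and 2 fell (17.4%, against 6.46% of all genes), with Stc1 at 4.48 ± 0.533 FPKM in combined libraries, against 0.743 ± 0.0474 FPKM in control libraries (1.65, adjusted p = 7.55e-04). Combined cells had 1 higher and 2 lower than Notch1-titled cells (13.0%, against 1.51% of all genes), and 3 higher and 1 lower than Zmiz1-titled cells (17.4%, against 3.86%). Notch1-titled cells had 4 higher and 4 lower than Zmiz1-titled cells (34.8%, against 10.9%). The 4 higher included the glycolysis regulator Pfkfb3 (0.30, adjusted p = 0.0463).

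The glycolytic HIF targets, a list also chosen with earlier results of these data known, were counted beside the 27 genes. Of 16 tested, 12 rose and 0 fell in Notch1-titled against control cells, a share of 75.0% called, against 22.2% of the 27 genes outside glycolysis and 5.49% of all genes. The median log2 fold change was 0.62 over the glycolytic genes and 0.01 over the 27. In combined against Notch1-titled cells 0 glycolytic genes rose and 10 fell (62.5%, against 1.51% of all genes). Of the 27 genes, 6 rose and 0 fell in Notch1-titled against control cells. In combined against Notch1-titled cells 1 of the 27 rose and 3 fell (14.8%). In Zmiz1-titled against control cells 0 of 16 were called by limma, against 2.11% of all genes, and 1 of 16 (6.25%) had an unadjusted p below 0.05, against 12.8% of all genes. For the interaction, 3 of 16 were called, all lower (18.8%, against 0.069% of all genes). They were Pgk1 (-0.91, limma adjusted p = 0.00190), Aldoa (-1.10, adjusted p = 0.00633) and Tpi1 (-1.10, adjusted p = 0.0464). With a pseudocount of 0.1 FPKM only 2 of all genes were called lower, so not all 3 calls held. The difference between the lists was not tested.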

How the data were processed

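The TruSeq mRNA v2 kit was used for the libraries, per the labels' protocols. The deposited unit is FPKM, 1 value per gene symbol and library, per the file headers. The authors used Cufflinks and Cuffdiff 2.1.1 with TopHat2 2.0.9 and Bowtie2 2.1.0.0, FastQC 0.10.0 and build mm10, per the submitters' processing notes; order and settings are not given there. The annotation, and whether libraries were scaled to each other, are not given in the sources used here. Depth per library is unknown, and library sums lay between 549098 and 606908 FPKM with 14233 to 14554 genes above 0.

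Groups followed the titles. Genes averaging at least 1 FPKM across all 12 libraries (10152) were fitted on the log2(FPKM + 1) scale with limma 3.58.1 in R 4.3.3, using group means, moderated variances and an intensity trend. The 6 pairwise contrasts of the 4 groups and the interaction were tested two-sided. P-values were adjusted by Benjamini and Hochberg's method across the genes fitted, the threshold was 0.05, and "called", "rose" and "fell" refer to it. With 3 libraries a side, exact permutation can reach no p below 0.1, so no such test was run. The pipeline was also tested on simulated data. The 32 genes and all lists were chosen with earlier results of these data known. The named genes were all 32, with values per library for those called, up to 4 called genes of each further list per comparison, Hif3a, and the vector genes. Promoters came from RefSeq (GRCm38.p6), where Ero1l was matched as Ero1a. Exon overlaps came from GENCODE release M21 (GRCm38, equal to mm10), in which exons of 13 of the 32 genes share bases with another gene.

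Alternatives were a pseudocount of 0.1 FPKM, either no filter or a minimum mean of 5 FPKM, quantile normalization, median ratio scaling, a fit of only the groups compared, robust variances, a replicate block and the omission of each library. Python 3.11.15 with matplotlib 3.10.9 drew the figures.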

Additional observations from a re-analysis of the deposited data

How the results depend on the processing

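Of the 26 calls, 17 held under every alternative in which the gene was tested, 9 were lost under at least 1, and 0 changed sign. Both Vegfa calls are among the 17, though Vegfa was not tested with the filter at 5 FPKM. In a fit of only the groups compared, 5 of the 27 genes were called in Notch1-titled against Zmiz1-titled cells (9 with all groups). The share of all genes called was then 2.62% (10.9% with all groups). In combined against control cells 9 were called (5), with 13.7% of all genes (6.46%). In Zmiz1-titled against control cells 0 were called (1), with 0.483% of all genes (2.11%). Quantile normalization and robust variances each gave 3 in combined against Zmiz1-titled cells (1 in the main analysis) and 2 in Zmiz1-titled against control cells (1). The share of all genes called in combined against Zmiz1-titled cells was 3.92% and 3.85% in these settings (3.86% in the main analysis). In Zmiz1-titled against control cells it was 2.04% and 2.16% (2.11%). Leaving out 1 library at a time gave 3 to 8 in combined against control cells (3.34% to 10.7% of all genes called). It gave 1 to 3 in combined against Zmiz1-titled cells (1.81% to 4.97%) and 1 to 2 in Zmiz1-titled against control cells (0.729% to 2.37%). Notch1-titled cells gave 5 to 8 against control cells (2.68% to 9.74%) and 7 to 9 against Zmiz1-titled cells (7.54% to 10.9%). Combined against Notch1-titled cells gave 3 to 4 (0.739% to 3.01%). A group left with 2 libraries took its spread from the shared model. The interaction stayed at 0 of the 27 genes in every alternative in which it could be fitted. The cause of these changes was not tested, and neither was the part of the smaller number of libraries where groups or libraries were left out.

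Replicate numbers were not taken as pairs, since not every pair of libraries with the same number had a correlation of deviations over 0.1. Of 18 such pairs 6 did (range -0.18 to 0.27), against 4 of 36 pairs with different numbers. For 8 of 12 libraries the best correlation was with one of their own number. Over all genes tested, 11.5% were highest and 14.5% lowest in replicate 1 of all 4 groups. This is a pattern of the data, and the labels state no pairing. The criterion was strict, so a gene not called without the block is not thereby shown to be unchanged. With the replicate block the count was 7 in combined against Notch1-titled cells (4 without it), with 2.56% of all genes called (1.51%). It was 4 in combined against Zmiz1-titled cells (1), with 7.1% of all genes (3.86%). In Zmiz1-titled against control cells it was 3 (1), with 3.6% of all genes (2.11%). Plod2 was then called in all 6 comparisons except combined against control cells (adjusted p up to 0.0336), and Fam162a in all except Zmiz1-titled against control cells (up to 0.0463). Over all genes the count with the block was 1059 in Notch1-titled against control cells (557 without it). Over all genes, the counts in Notch1-titled against control cells ran from 272 to 989 when 1 library was left out. FPKM without read totals limits what can be said of genes near 0 FPKM.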

Other observations

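Some of the 27 genes went with the replicate number in all 4 groups, as did many of all genes tested, so this is not particular to the 27. Egln2 was lowest in replicate 1 of each group, at 23.7 FPKM in combined, 22.1 in Notch1-titled, 23.6 in Zmiz1-titled and 22.9 FPKM in control libraries. Vhl, Plod2, Mxi1 and Ero1l were highest in replicate 1 of each group, for example Vhl at 21.7, 22.3, 22.2 and 23.5 FPKM in the same order of groups. This made 4 of 27 genes (14.8%) highest and 1 of 27 (3.7%) lowest in replicate 1 throughout, against 11.5% and 14.5% of the 10152 genes tested.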
